A study of Mus musculus with 24 samples.

Results

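Chromatin accessibility was examined at the loci of 10 transcription factor genes that set and keep myeloid identity: Spi1 and Spic, which encode the ETS factors PU.1 and SpiC; Cebpa, Cebpb, Cebpd and Cebpe, which encode CCAAT/enhancer binding proteins (C/EBPs); Runx1 and Runx3; Klf4; and Egr2. Members were the consensus ATAC-seq peaks that overlapped the body of one of these genes or the 20 kb on either side, each given to the nearest of the 10 genes. This gave 155 of 184158 consensus peaks, of which 87 lay within a gene body, 11 covered a transcription start site (TSS) of their gene and 3 covered the TSS of a neighbouring gene. The number per gene ran from 6 peaks at Cebpd to 63 at Runx1, a gene of 224.7 kb. Spi1 had 18, Runx3 14, Cebpb 11, Egr2 10, Spic and Cebpe 9 each, Cebpa 8 and Klf4 7. Of the 155 peaks, 153 held enough counts to be tested.

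ATAC-seq counts the DNA fragments that a transposase cuts out of open chromatin. It was applied to mouse bone marrow-derived macrophages (BMDMs) in 4 groups of 6 libraries, WT and AhR-KO, each unstimulated or with LPS. Donors of AhR-KO marrow carried a germline disruption of Ahr, the gene of the aryl hydrocarbon receptor, so the receptor was missing from every marrow cell from the start of culture; WT marrow was the control. All cultures grew in RPMI and 10% fetal bovine serum, to which GM-CSF at 10 ng/ml and TGF-β at 2 ng/ml had been added, conditions that the study chose to make BMDMs resemble alveolar macrophages. The LPS groups received lipopolysaccharide at 97 EU/ml on day 6 for 24 h, and 5 µM of the calcium ionophore A23187 was added for 10 min at the end. The labels attach this treatment, LPS included, to all 24 libraries, so whether unstimulated cultures also received the ionophore cannot be read from them. The study states 6 animals per group from 1 experiment, but the labels tie no library to an animal, so p-values measure the spread between these libraries.

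PU.1 is the master regulator of the myeloid lineage: it opens chromatin at macrophage enhancers together with C/EBP and RUNX factors, and its dose separates macrophage from other blood cell fates. C/EBPα drives the step from stem cell to myeloid progenitor, C/EBPβ and C/EBPδ are activated in stimulated macrophages, and C/EBPε belongs to granulocyte maturation. Runx1 is needed for blood formation and helps switch on Spi1, while Runx3 restrains inflammatory responses in TGF-β-dependent phagocytes.

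Between 8.54 and 34.6 M (mega) fragments were counted per library, with WT unstimulated replicate 5 lowest, and peaks with few counts are measured with the largest error. None of the 21 peaks in and around Ahr covered exon 2, which this allele is known to lack (0 of 21), so the peaks do not check the knockout. The summed signal around Ahr differed between AhR-KO and WT by -0.06 ± 0.0673 (log2, SE) without LPS, with an adjusted p of 0.428 in edgeR, and by 0.79 ± 0.0651 with LPS, with an adjusted p of 1.34e-10. All 10 macrophage marker genes listed had a peak over their TSS, and 18 of 29 markers of other cell types had none, including all 4 T cell and all 4 mast cell and eosinophil genes. The summed signal at macrophage marker TSSs was 159.4 to 176.8 CPM (counts per M counted fragments) in WT unstimulated and 192.0 to 243.2 CPM in AhR-KO unstimulated libraries, and 141.6 to 165.1 and 147.4 to 190.3 CPM with LPS. Among the 4 dendritic cell markers, with no peak at Xcr1, the sum was 29.1 to 46.2 CPM in WT LPS and 22.2 to 28.5 CPM in AhR-KO LPS. The sum at neutrophil and granulocyte precursor markers, of which 3 of 6 had a TSS peak and Ly6g, Mpo and Elane had none, was 35.1 to 52.7 CPM in WT and 44.2 to 52.1 CPM in AhR-KO libraries with LPS. At rest it reached 43.8 CPM in WT, and the resting AhR-KO range lay within the resting WT range. Every resting AhR-KO library lay below every LPS-treated AhR-KO library, whereas the ranges of resting and LPS-treated WT libraries overlapped. The part of these shifts in the results below, those at Cebpe included, was not tested. In bulk libraries, fewer cells with an open site cannot be told apart from a less open site in each cell.

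The 6 windows printed here from mm10 and RefSeq lie under peaks that the results turn on. Capitals mark matches, on either strand, to 6 motif strings: GAGGAAGT for PU.1, TTGCNNAA for C/EBP, TGTGGT for RUNX, GCGTG for the AhR core, TGANTCA for AP-1 and GGGANNTTC for NF-kB. Peaks are named by gene and by the distance of their centre from the first TSS of the gene's protein-coding transcripts in the GENCODE basic set, which at Spi1, Spic and Egr2 lies inside the annotated gene, positive downstream, and peak positions are given as the count table lists them, with a start that counts from 0. The first 4 windows are the central 300 bases of intronic or intergenic peaks on the plus strand of mm10, and the last 2 are the 250 bases before the RefSeq start of Cebpb and of the upstream Runx3 promoter, from the RefSeq table for GRCm38.p6, which held 7 of the 10 genes.
Spic -1.4 kb, chr10:88684224-88684523: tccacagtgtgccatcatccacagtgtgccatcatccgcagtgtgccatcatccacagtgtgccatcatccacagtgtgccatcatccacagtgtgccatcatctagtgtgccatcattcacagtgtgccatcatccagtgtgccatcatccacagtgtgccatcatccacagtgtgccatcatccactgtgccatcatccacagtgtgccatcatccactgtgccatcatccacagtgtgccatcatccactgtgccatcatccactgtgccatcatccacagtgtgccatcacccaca
Cebpa -20.4 kb, chr7:35098733-35099032: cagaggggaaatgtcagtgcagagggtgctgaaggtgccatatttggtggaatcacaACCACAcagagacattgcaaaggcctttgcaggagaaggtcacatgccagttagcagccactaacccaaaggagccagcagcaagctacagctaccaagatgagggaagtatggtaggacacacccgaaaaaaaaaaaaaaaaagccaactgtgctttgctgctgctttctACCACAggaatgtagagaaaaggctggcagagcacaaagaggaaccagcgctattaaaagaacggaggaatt
Runx1 +42.9 kb, chr16:92783087-92783386: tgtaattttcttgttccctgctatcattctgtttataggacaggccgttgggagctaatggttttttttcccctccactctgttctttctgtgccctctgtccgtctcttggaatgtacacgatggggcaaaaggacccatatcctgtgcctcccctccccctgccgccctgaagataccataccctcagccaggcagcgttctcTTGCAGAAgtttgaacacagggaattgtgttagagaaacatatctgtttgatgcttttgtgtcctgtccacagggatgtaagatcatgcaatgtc
Runx1 +3.9 kb, chr16:92822052-92822351: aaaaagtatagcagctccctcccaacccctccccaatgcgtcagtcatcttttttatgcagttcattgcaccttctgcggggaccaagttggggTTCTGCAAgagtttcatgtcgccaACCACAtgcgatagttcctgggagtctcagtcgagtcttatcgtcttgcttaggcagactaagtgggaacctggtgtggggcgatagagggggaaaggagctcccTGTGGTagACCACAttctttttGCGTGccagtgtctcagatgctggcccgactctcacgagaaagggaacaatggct
Cebpb promoter, chr2:167688665-167688914, plus strand: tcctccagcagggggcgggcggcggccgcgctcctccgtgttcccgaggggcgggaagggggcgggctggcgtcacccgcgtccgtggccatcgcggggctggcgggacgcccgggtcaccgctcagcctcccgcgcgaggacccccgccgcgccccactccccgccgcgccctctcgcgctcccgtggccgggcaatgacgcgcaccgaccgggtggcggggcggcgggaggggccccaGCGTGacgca
Runx3 promoter, chr4:135120395-135120644, plus strand: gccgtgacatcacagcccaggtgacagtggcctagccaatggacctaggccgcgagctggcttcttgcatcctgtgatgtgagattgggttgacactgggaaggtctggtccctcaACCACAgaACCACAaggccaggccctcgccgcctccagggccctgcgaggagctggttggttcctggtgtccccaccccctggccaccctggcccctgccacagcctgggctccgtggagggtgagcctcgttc

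The Spic -1.4 kb window is a tandem repeat: 72.4% of its bases equalled the base 17 positions before, the highest such share among the member peaks, and it holds none of the 6 motifs. The part of the repeat in its counts was not tested. The Runx1 +3.9 kb window holds 3 RUNX strings, 1 C/EBP string and 1 AhR core string. The Cebpa -20.4 kb window and the Runx3 promoter each hold 2 RUNX strings, Runx1 +42.9 kb holds 1 C/EBP string, and the Cebpb promoter holds 1 AhR core string. In the central 300 bases of the 153 tested member peaks, the AhR core was found in 17.6%, against 16.3% of 174106 tested peaks genome-wide. The PU.1 string was found in 3.27% against 7.49%, the C/EBP string in 12.4% against 15.8%, the RUNX string in 25.5% against 27.5%, the AP-1 string in 19.6% against 18.1% and the NF-kB string in 3.92% against 4.8%. In the 250 bases before the start, 28.2% of 32851 RefSeq promoters held the AhR core and 9.56% held the C/EBP string. These matches describe the letters in the windows and are not binding sites.

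Peaks were called differentially accessible (DARs) where they changed by 1.5-fold or more and the adjusted p did not exceed 0.05, by the quasi-likelihood test of edgeR, adjusted by Benjamini-Hochberg over the 174193 peaks tested. In unstimulated cells, 12 member peaks were less and 20 were more accessible in AhR-KO than in WT, which is 7.84% and 13.1% of 153, where the background was 12.6% lower and 9.95% higher (22.6% in either direction). With LPS, 14 were lower and 22 higher, against a background of 13.1% lower and 13.4% higher (26.5% in either direction). The total share of member peaks called was thus near the background in both comparisons, at 20.9% and 23.5%. The median log2 fold change of AhR-KO against WT over the member peaks was 0.092 unstimulated and 0.124 with LPS, beside -0.0212 and 0.0211 over all tested peaks.

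More of these peaks were DARs between LPS and unstimulated libraries than between genotypes. In WT, 32 fell and 32 rose after LPS, against a background of 21.6% lower and 25.4% higher (47% in either direction). In AhR-KO, 41 fell and 41 rose, against a background of 21.5% lower and 27.3% higher (48.8% in either direction). Of the 11 peaks over the members' own TSSs, 1 was a DAR between genotypes without LPS and 2 with LPS, and 2 in WT and 5 in AhR-KO changed with LPS. These TSS peaks had a median of 41.0 CPM against 2.64 CPM in the other 142 peaks. Shares among the TSS peaks of all genes were not computed.

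Of the 153 peaks, 29 fell with LPS in both genotypes and 29 rose in both, where 15.7% and 20.9% of all tested peaks did so, and 1 peak, at Cebpe, went in opposite directions (background 0.192%). Between genotypes, 9 peaks were lower in AhR-KO in both, 5.88% against 6.95% of all tested peaks, and 12 were higher in both, 7.84% against 5.08%. Both genotype comparisons called none of the members in opposite directions. A total of 57 peaks, 37.3% of those tested, were called in none of the comparisons. For both counts the share over all tested peaks was not computed, so neither is read as a trait of these loci.

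**Figure D1:**
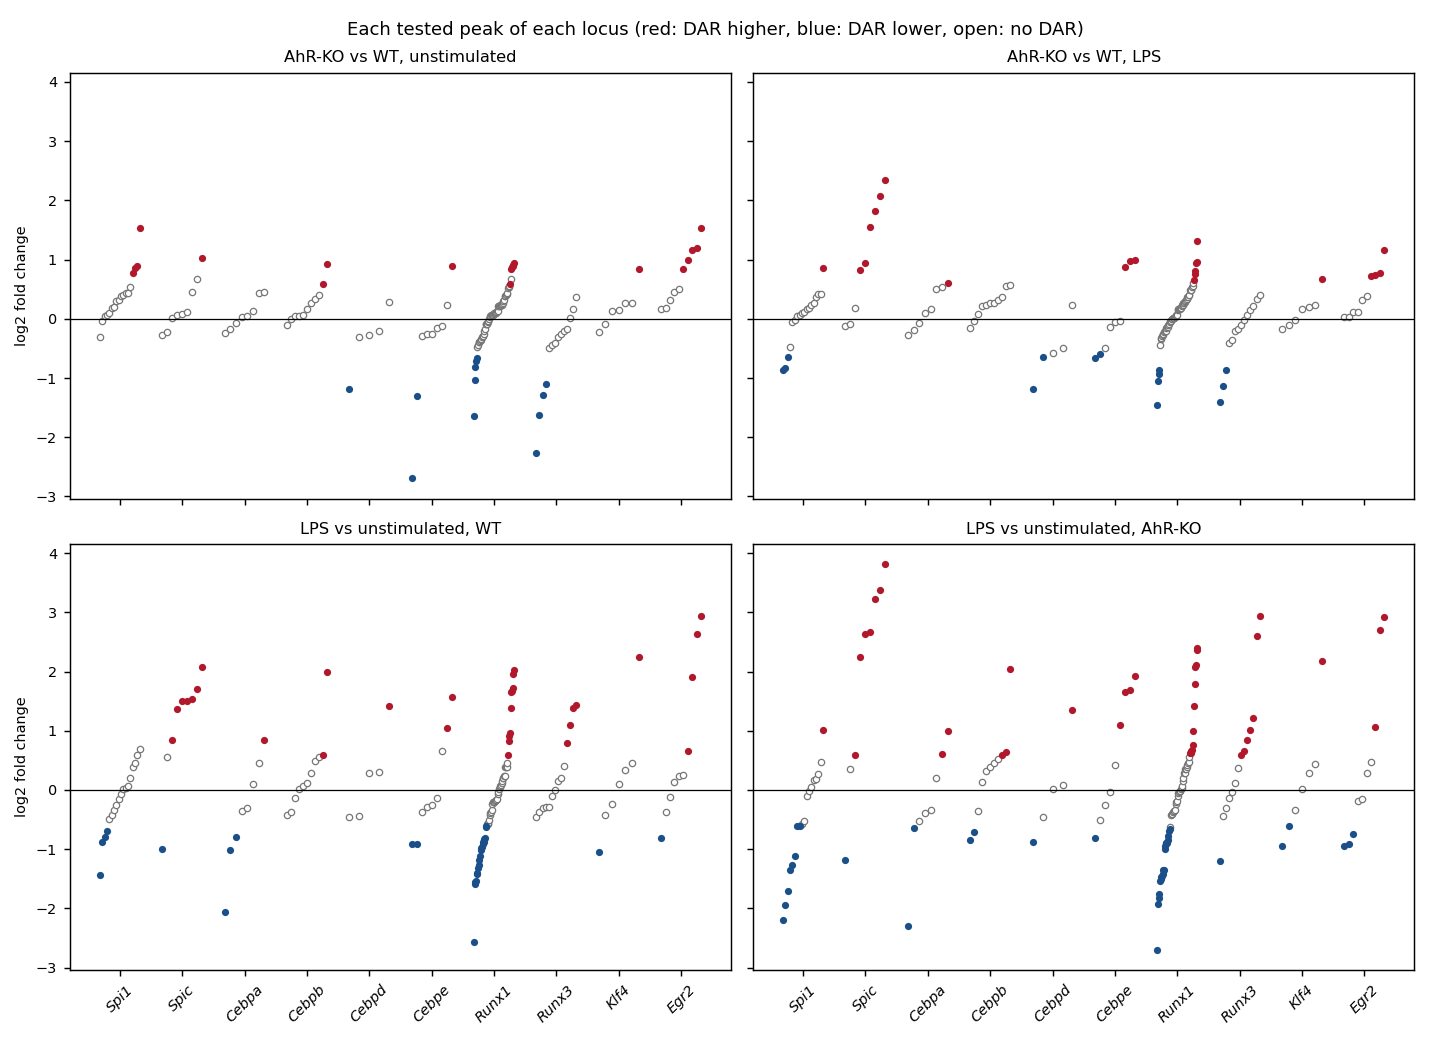
Log2 fold changes (vertical axes) of the 153 tested peaks, grouped by gene (horizontal axes), in the 4 comparisons; each point is 1 peak, red for a DAR that was higher, blue for a DAR that was lower and open for no DAR. Spic peaks rise to 3.82 after LPS in AhR-KO, the Runx1 peaks spread to both sides after LPS, and 0 of the Runx3 peaks is a higher DAR in AhR-KO against WT.

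To compare genes, counts were also summed over all peaks in the gene body and 20 kb either side and tested in the same way over 19264 protein-coding genes, where a locus was called at an adjusted p of at most 0.05 with no limit on the fold change. Of the 10 loci, 7 were called between genotypes without LPS (background 60.9%) and 5 with LPS (background 42.4%). LPS changed 7 loci in WT (background 59.1%) and 8 in AhR-KO (background 70.4%), and 4 loci were called for the interaction, the genotype effect with LPS minus that without (background 36.5%). With 10 loci these shares are near the background, so the loci are described by the size and direction of their change. Per kb of peak, mean signal in WT unstimulated cells was highest at Cebpd with 15.5 CPM, Klf4 with 14.2 CPM and Spi1 with 13.3 CPM, and lowest at Cebpe with 5.66 CPM and Spic with 2.19 CPM.

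**Figure D2:**
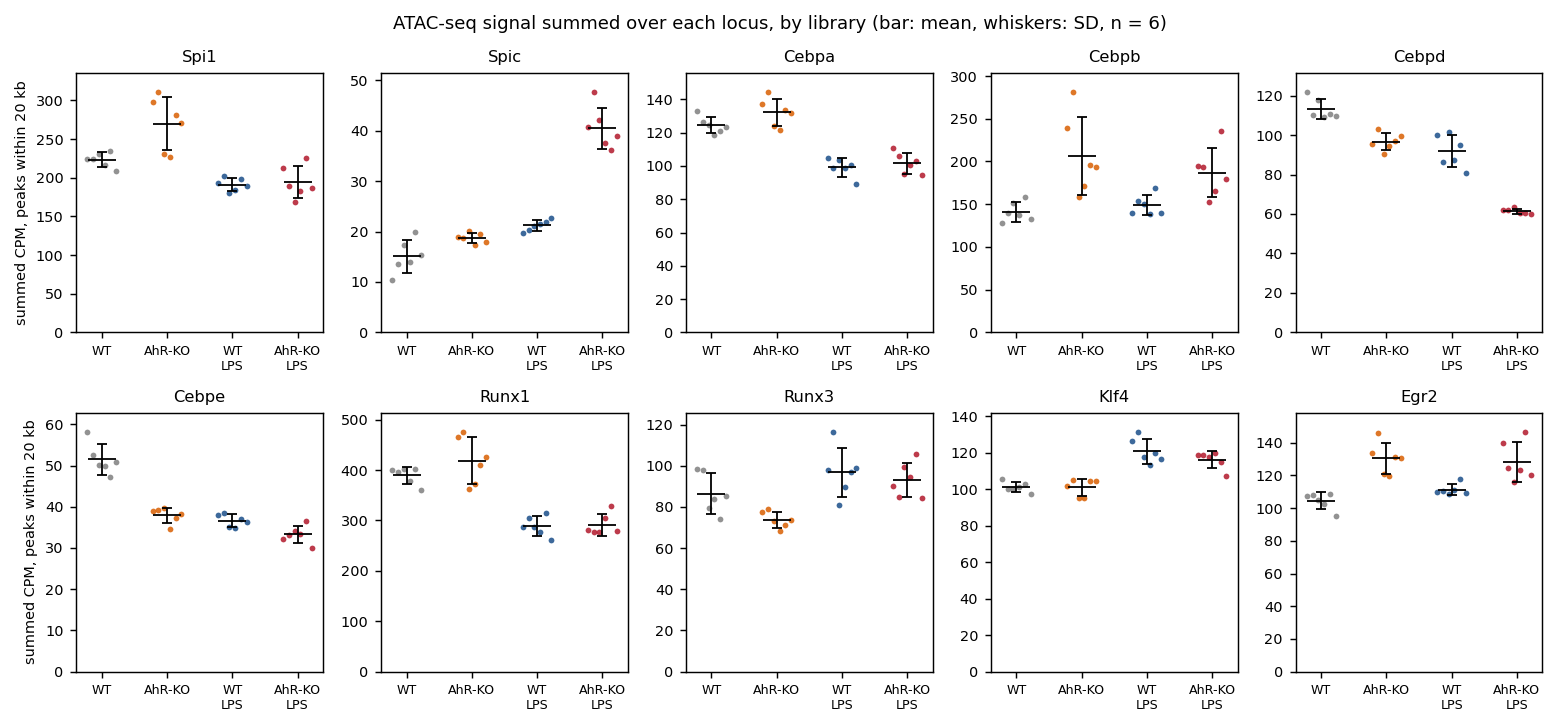
Summed CPM over the peaks of each locus (vertical axes, from 0) in the 4 groups (horizontal axes); points are the 6 libraries of a group, the bar is the mean and the whiskers the SD. Spic stands at 36.1 to 47.6 CPM in AhR-KO LPS, above every library of the other groups, and Cebpd at 60.2 to 63.4 CPM there, below every other library.

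Spi1 encodes PU.1. Its summed signal was higher in AhR-KO than in WT at rest and fell after LPS in both genotypes. Summed CPM had a lowest, median and highest value of 208.5, 224.7 and 234.3 in resting WT, 226.5, 276.3 and 310.4 in resting AhR-KO, 179.7, 191.7 and 202.6 in LPS-treated WT and 169.3, 188.5 and 226.2 in LPS-treated AhR-KO libraries. The unstimulated AhR-KO libraries were mostly above the WT ones with some overlap, whereas the LPS libraries of both genotypes lay over each other and below the unstimulated ones of their genotype. AhR-KO differed from WT by 0.27 ± 0.0662 (SE of a log2 fold change) without LPS, with an adjusted p of 0.000843, and 0.03 ± 0.0659 with LPS, with an adjusted p of 0.78. LPS lowered the sum by -0.22 ± 0.0662 in WT and -0.47 ± 0.066 in AhR-KO, both called, and the difference between these responses was -0.25 ± 0.0933 with an adjusted p of 0.0387. Leaving out any 1 of 11 libraries moved the adjusted p of that difference above 0.05, for example to 0.081 at -0.20 without AhR-KO unstimulated replicate 2.

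Of the Spi1 peaks, 2 covered a RefSeq start. The protein-coding start used here lies just upstream of the first, Spi1 +1.8 kb (chr2:91096305-91099473), which was added for covering a RefSeq start after its values were seen. At rest it held 32.3 ± 2.1 CPM (mean ± SD of 6 libraries, as below) in WT and 34.4 ± 5.29 CPM in AhR-KO, and with LPS 30.9 ± 1.77 and 31.9 ± 4.2 CPM. Its log2 fold changes lay between -0.11 and 0.09 in the 4 comparisons and none passed the test. The other, the strongest peak of the locus, was Spi1 -12.6 kb (chr2:91082029-91085019, annotated to a Spi1 intron), which covers the start of the annotated gene. It stood at 57.1 to 63.9 CPM in WT unstimulated and 66.0 to 100.6 CPM in AhR-KO unstimulated libraries, a log2 difference of 0.43 ± 0.086 with an adjusted p of 0.000186 that did not reach the fold limit. It fell to 48.0 ± 2.8 and 54.5 ± 8.14 CPM with LPS.

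One peak in the body of Spi1 differed between genotypes in opposite directions without and with LPS. Spi1 +16.9 kb (chr2:91112164-91113771, over an exon) had lowest, median and highest values of 13.4, 16.2 and 18.7 CPM in resting WT, 18.1, 21.2 and 25.8 in resting AhR-KO, 12.8, 15.9 and 19.9 in LPS-treated WT and 7.38, 8.79 and 10.6 in LPS-treated AhR-KO libraries. All 6 AhR-KO LPS libraries were below all others. The genotype difference was 0.41 ± 0.106 without LPS, past the test but under the fold limit, and -0.87 ± 0.107 with LPS, and the interaction was -1.28 ± 0.151 with an adjusted p of 7.72e-07. With LPS the peak changed by 0.01 ± 0.105 in WT, with an adjusted p of 0.951, and fell by -1.27 ± 0.108 in AhR-KO. Over the 18 Spi1 peaks, 4 fell with LPS in WT and 8 fell in AhR-KO, 22.2% and 44.4% beside 21.6% and 21.5% of all tested peaks. For the interaction 3 were DARs, all lower, 16.7% beside 4.58%. The peaks at +27.2 and +29.5 kb, both LPS DARs in AhR-KO, were found by the peak caller only in resting AhR-KO libraries, in 1 and 3 of 6. They entered the consensus set through that group. These counts, the interaction DAR at +27.2 kb included, are thus partly set by that selection. The window also holds Slc39a13, Psmc3 and Mybpc3, and for 9 of the 18 peaks the nearest coding TSS was that of another gene.

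Spic encodes SpiC, a PU.1 relative that marks red pulp macrophages and is induced by heme and by inflammatory signals. It showed the largest change of the 10 loci: LPS raised its accessibility in both genotypes, and far more in AhR-KO. The summed signal was low in unstimulated cells, with a lowest, median and highest value of 10.3, 14.7 and 19.9 CPM in WT and 17.4, 18.9 and 20.1 CPM in AhR-KO. With LPS it was 19.8, 21.3 and 22.7 CPM in WT and 36.1, 39.8 and 47.6 CPM in AhR-KO. The AhR-KO LPS libraries lay above the other 18, which stood between 10.3 and 22.7 CPM. LPS raised the sum by 0.51 ± 0.0913 in WT and 1.11 ± 0.0865 in AhR-KO, with an interaction of 0.60 ± 0.126 at an adjusted p of 0.000697.

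Single Spic peaks carried this rise. At Spic +6.1 kb (chr10:88676316-88677568, over a Spic exon) the lowest, median and highest values were 1.19, 1.35 and 1.86 CPM in resting WT, 2.37, 2.93 and 3.62 in resting AhR-KO, 3.54, 4.82 and 5.74 in LPS-treated WT and 12.4, 13.5 and 16.3 in LPS-treated AhR-KO libraries. Loss of AhR and LPS both raised the peak, and no group overlapped another in any of the 4 comparisons. The difference between genotypes was 1.02 ± 0.151 at rest and 1.55 ± 0.107 with LPS, and its interaction of 0.53 ± 0.189 did not pass the test, with an adjusted p of 0.0522. The authors' peak caller found it in 0 of 6 WT unstimulated libraries and in all 6 of each other group.

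The repeat at Spic -1.4 kb (chr10:88684087-88684659, intronic) was low in unstimulated cells of both genotypes and highest in AhR-KO LPS. It held 0.369 ± 0.188 CPM in resting WT, 0.422 ± 0.146 in resting AhR-KO, 1.16 ± 0.339 in LPS-treated WT and 5.92 ± 2.43 in LPS-treated AhR-KO libraries, where libraries ran from 3.99 to 10.1 CPM. It was called in all 6 AhR-KO LPS libraries and in none of the other 18. AhR-KO exceeded WT by 2.35 ± 0.221 with LPS, 5.1-fold, with an adjusted p of 8.59e-10, and the LPS response was 3.82 ± 0.272 in AhR-KO and 1.5 ± 0.334 in WT. The interaction of 2.33 ± 0.486 passed the test with an adjusted p of 0.00148. Spic +8.2 kb (chr10:88674631-88674978, over an untranslated exon) was also highest in AhR-KO LPS, with 0.662 ± 0.0889 CPM in WT LPS, 2.82 ± 0.974 CPM in AhR-KO LPS and an interaction of 2.01 ± 0.463 at an adjusted p of 0.00283. Of its central 300 bases, 80.7% were soft-masked as repeats.

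Over the 9 Spic peaks, 7 rose with LPS in each genotype, 77.8% beside 25.4% of all tested peaks in WT and 27.3% in AhR-KO. Only 1, at -8.4 kb, fell in each. AhR-KO exceeded WT at 6 of 9 with LPS and at 1 of 9 without, 66.7% and 11.1% beside 13.4% and 9.95%. Of these, the peaks at +9.3, +8.2, -1.4, -15.2 and -16.4 kb were called only in AhR-KO LPS libraries. They entered the consensus set through the group where they are highest. Their count, their differences and their part of the Spic sum are thus partly set by that selection. The TSS peak at Spic +0.7 kb (chr10:88681095-88683488) held 4.74 ± 0.911 CPM in resting WT, 6.44 ± 0.399 in resting AhR-KO, 8.54 ± 0.649 in LPS-treated WT and 9.69 ± 0.969 in LPS-treated AhR-KO libraries. LPS raised it by 0.85 ± 0.103 in WT and 0.59 ± 0.0969 in AhR-KO, the second at the fold limit and under it without any of 5 libraries, down to 0.56, and its genotype difference with LPS was 0.18 ± 0.0929 with an adjusted p of 0.106.

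**Figure D3:**
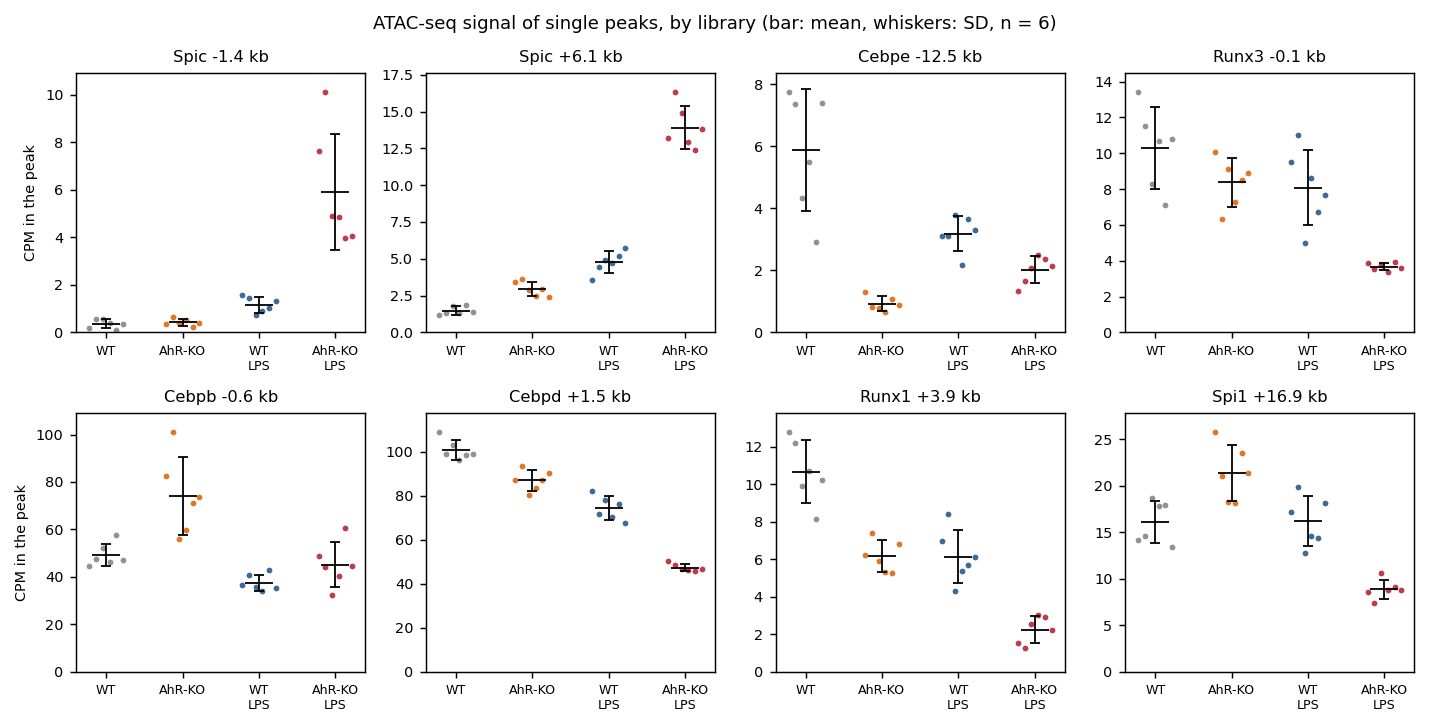
CPM of 8 single peaks (vertical axes, from 0) in the 4 groups (horizontal axes); points are libraries, the bar is the mean and the whiskers the SD of 6. The Spic peaks at -1.4 and +6.1 kb are highest in AhR-KO LPS, while Cebpd +1.5 kb, Runx1 +3.9 kb, Runx3 -0.1 kb and Spi1 +16.9 kb are lowest there.

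Cebpa, the factor that opens the myeloid programme, showed no genotype difference in its sum past the test. Its summed signal was 124.7 ± 5.01 CPM in WT unstimulated and 132.2 ± 8.37 CPM in AhR-KO unstimulated, and 99.3 ± 5.69 and 101.6 ± 6.22 CPM with LPS. AhR-KO differed from WT by 0.08 ± 0.0474 and 0.03 ± 0.0471, neither past the test. Of 8 peaks, 0 was a genotype DAR without LPS and 1 with LPS, beside 22.6% and 26.5% of all tested peaks. LPS lowered the sum by -0.33 ± 0.0474 in WT and -0.38 ± 0.0471 in AhR-KO.

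The deepest LPS fall at the locus was at an intergenic peak whose window is printed above. Cebpa -20.4 kb (chr7:35097905-35099860) stood at 19.6 ± 0.644 CPM in WT and 20.1 ± 1.89 CPM in AhR-KO at rest, and at 4.68 ± 0.5 and 4.09 ± 0.364 CPM with LPS. Every LPS library was below every unstimulated one, and the genotypes overlapped in both states. In WT it fell by 2.06 on the log2 scale, 4.17-fold, and in the knockout by 2.29, 4.9-fold. The TSS peak at Cebpa +0.2 kb (chr7:35118063-35120988) fell less, by 0.31 in WT and 0.53 in AhR-KO, from 67.9 ± 3.51 to 54.6 ± 3.37 CPM and from 74.8 ± 6.29 to 51.9 ± 5.77 CPM, both under the fold limit.

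Cebpb, whose product C/EBPβ drives inflammatory and emergency gene programmes in macrophages, was more accessible in AhR-KO. Its summed signal had lowest, median and highest values of 127.6, 138.8 and 158.0 CPM in resting WT, 158.9, 194.5 and 280.8 in resting AhR-KO, 138.4, 145.3 and 168.5 in LPS-treated WT and 152.6, 186.8 and 235.7 in LPS-treated AhR-KO libraries. The unstimulated groups did not overlap, and AhR-KO libraries were more spread out than WT ones in both states. The genotype difference was 0.55 ± 0.109 without LPS, with an adjusted p of 0.000129, and 0.33 ± 0.107 with LPS, with an adjusted p of 0.0142. The difference with LPS lost its call, at 0.26 and an adjusted p of 0.0545, without AhR-KO LPS replicate 5. LPS moved the sum by 0.08 ± 0.108 in WT and -0.14 ± 0.107 in AhR-KO, neither past the test.

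The promoter peak was called in unstimulated cells. Cebpb -0.6 kb (chr2:167687115-167689493), which spans the single-exon gene's start, had lowest, median and highest values of 44.5, 47.4 and 57.6 CPM in WT unstimulated and 55.9, 72.4 and 101.2 CPM in AhR-KO unstimulated. The groups overlapped at 1 AhR-KO library. Its genotype difference of 0.59 ± 0.13 lay at the fold limit, with an adjusted p of 0.000756, and fell under the limit when any of 5 libraries was left out, to 0.48 without AhR-KO unstimulated replicate 2. With LPS, the peak held 37.6 ± 3.4 CPM in WT and 45.1 ± 9.4 CPM in AhR-KO, and the difference of 0.27 ± 0.129 did not pass the test. Of the 11 Cebpb peaks, the other genotype DAR was Cebpb +4.2 kb, named after its values were seen, with 37.9 ± 5.06 CPM in WT unstimulated, 71.5 ± 24.6 CPM in AhR-KO unstimulated and a difference of 0.92 ± 0.172.

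Cebpd, which encodes the acute-phase factor C/EBPδ, was lower in AhR-KO in both states and fell with LPS. Its summed signal had lowest, median and highest values of 109.2, 110.6 and 121.6 CPM in resting WT, 90.5, 96.3 and 102.9 in resting AhR-KO, 80.9, 91.2 and 101.8 in LPS-treated WT and 60.2, 61.2 and 63.4 in LPS-treated AhR-KO libraries. Neither genotype comparison nor LPS comparison had overlapping groups. Loss of AhR changed the sum by -0.23 ± 0.0481 without LPS and -0.58 ± 0.0482 with LPS, and the interaction was -0.35 ± 0.068 with an adjusted p of 0.000277.

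Most of the Cebpd signal came from the peak over its TSS. Cebpd +1.5 kb (chr16:15886627-15890928) held 100.7 ± 4.64 CPM in resting WT, 86.9 ± 4.71 in resting AhR-KO, 74.3 ± 5.54 in LPS-treated WT and 47.3 ± 1.61 in LPS-treated AhR-KO libraries. Its genotype difference was -0.65 ± 0.0496 with LPS, a DAR with an adjusted p of 1.35e-12, and -0.21 ± 0.0492 without LPS, called by the test but under the fold limit. The interaction of -0.44 ± 0.0698 had an adjusted p of 4.07e-05 and was also under the fold limit. Of the 5 tested Cebpd peaks, 1 was lower in AhR-KO without LPS, 2 were lower with LPS and 0 were higher in either state. Among all tested peaks, 12.6% and 13.1% were lower and 9.95% and 13.4% were higher.

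Cebpe, the granulocyte factor, was lower in AhR-KO at rest. Its summed signal had lowest, median and highest values of 47.3, 50.5 and 58.2 CPM in resting WT, 34.6, 38.6 and 39.6 in resting AhR-KO, 34.8, 36.6 and 38.4 in LPS-treated WT and 30.1, 33.4 and 36.5 in LPS-treated AhR-KO libraries. The WT unstimulated libraries stood above the other 18, which lay close together. Loss of AhR changed the sum by -0.44 ± 0.0508 without LPS, with an adjusted p of 4.89e-08, and -0.14 ± 0.0503 with LPS, with an adjusted p of 0.0281. The call with LPS was lost without any 1 of 4 libraries, for example at -0.11 with an adjusted p of 0.0813 without AhR-KO LPS replicate 6. The interaction was 0.31 ± 0.0715 with an adjusted p of 0.00173.

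Cebpe -12.5 kb (chr14:54724089-54725236) had the largest genotype difference of all 153 peaks at rest. It overlaps an untranslated exon of the neighbouring transporter gene Slc7a8. Its lowest, median and highest values were 2.91, 6.42 and 7.73 CPM in resting WT, 0.652, 0.851 and 1.3 in resting AhR-KO, 2.18, 3.19 and 3.79 in LPS-treated WT and 1.33, 2.11 and 2.49 in LPS-treated AhR-KO libraries. LPS thus lowered the peak in WT and raised it in AhR-KO, and the genotypes came closer. The genotype difference was -2.68 ± 0.207 without LPS, 6.41-fold, with an adjusted p of 4.5e-12, and -0.67 ± 0.184 with LPS, which fell under the fold limit at -0.57 without AhR-KO LPS replicate 1. The LPS response was -0.91 ± 0.171 in WT and 1.10 ± 0.224 in AhR-KO. Its interaction of 2.01 ± 0.282 had an adjusted p of 9.98e-06. The peak was called in 6 of 6 WT and 0 of 6 AhR-KO libraries at rest, and in 6 of 6 and 3 of 6 after LPS.

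The peak downstream of the gene, Cebpe +5.8 kb (chr14:54705654-54707127), showed the same order at rest, with 6.68 ± 1.6 CPM in WT and 2.70 ± 0.56 CPM in AhR-KO, a difference of -1.31 ± 0.149. With LPS it stood at 5.44 ± 1.03 and 3.58 ± 0.467 CPM, a difference of -0.60 ± 0.139 that fell under the fold limit without any of 5 libraries, and its interaction was 0.71 ± 0.204 with an adjusted p of 0.0148. The TSS peak at Cebpe -0.1 kb (chr14:54711259-54713323) fell with LPS in both genotypes, from 21.1 ± 0.459 to 11.2 ± 0.966 CPM in WT and from 17.8 ± 0.86 to 10.2 ± 1.16 CPM in AhR-KO, by 0.92 and 0.81 on the log2 scale. It was the sole TSS peak of the 10 genes that fell past the fold limit in both genotypes.

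The Runx1 sum fell with LPS in both genotypes, and the genotype difference of the sum did not pass the test. Summed CPM had lowest, median and highest values of 361.1, 398.4 and 402.2 in resting WT, 361.6, 418.1 and 476.0 in resting AhR-KO, 261.5, 287.1 and 315.2 in LPS-treated WT and 276.4, 280.1 and 328.5 in LPS-treated AhR-KO libraries. All LPS libraries lay below all unstimulated ones, and the genotypes overlapped in both states. LPS changed the sum by -0.43 ± 0.0576 in WT and -0.52 ± 0.0575 in AhR-KO. Between genotypes it differed by 0.10 ± 0.0574 without LPS, with an adjusted p of 0.123, and 0.01 ± 0.0574 with LPS, with an adjusted p of 0.885. Leaving out AhR-KO unstimulated replicate 3 or 4 brought the difference without LPS under the test's threshold, at 0.14 with an adjusted p of 0.0291 and 0.13 with an adjusted p of 0.0455.

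Along the 224.7 kb gene, the LPS response was a mixture. Of 62 tested Runx1 peaks, 20 fell and 10 rose in WT, 32.3% and 16.1% beside 21.6% and 25.4% of all tested peaks. In AhR-KO 20 fell and 12 rose, 32.3% and 19.4% beside 21.5% and 27.3%. In both genotypes 19 fell and 8 rose, where 15.7% and 20.9% of all tested peaks did so. Neither promoter peak was among them: Runx1 +1.0 kb (chr16:92823429-92826871), over the distal promoter, held 42.8 ± 3.12 CPM in WT unstimulated and 38.7 ± 3.47 CPM in WT LPS, and Runx1 +128.4 kb (chr16:92696568-92698927), over the proximal promoter, held 40.7 to 48.1 and 34.6 to 42.2 CPM. Their LPS changes in AhR-KO were -0.35 ± 0.0671 and -0.34 ± 0.0762, past the test but under the fold limit.

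The intronic peak at Runx1 +42.9 kb (chr16:92782388-92784084), printed above, had the largest LPS fall of all member peaks in both genotypes. Its lowest, median and highest values were 32.8, 33.8 and 37.0 CPM in resting WT, 41.2, 49.6 and 57.7 in resting AhR-KO, 4.76, 5.76 and 6.95 in LPS-treated WT and 6.44, 7.4 and 8.83 in LPS-treated AhR-KO libraries. Every LPS library was far below every unstimulated one of either genotype. The fall was 2.56 on the log2 scale in WT, 5.89-fold, and 2.71 in AhR-KO, 6.55-fold, and the difference of -0.16 ± 0.126 between these responses had an adjusted p of 0.441. The genotype difference at rest, 0.52 ± 0.0803 with an adjusted p of 2.54e-06, was under the fold limit. Among Runx1 peaks, the rise with the smallest p in WT was at Runx1 +216.6 kb (chr16:92609270-92609865), where WT libraries went from 1.53 to 3.05 CPM to 7.11 to 12.2 CPM and AhR-KO libraries from 1.96 to 2.67 CPM to 10.3 to 13.7 CPM.

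**Figure D4:**
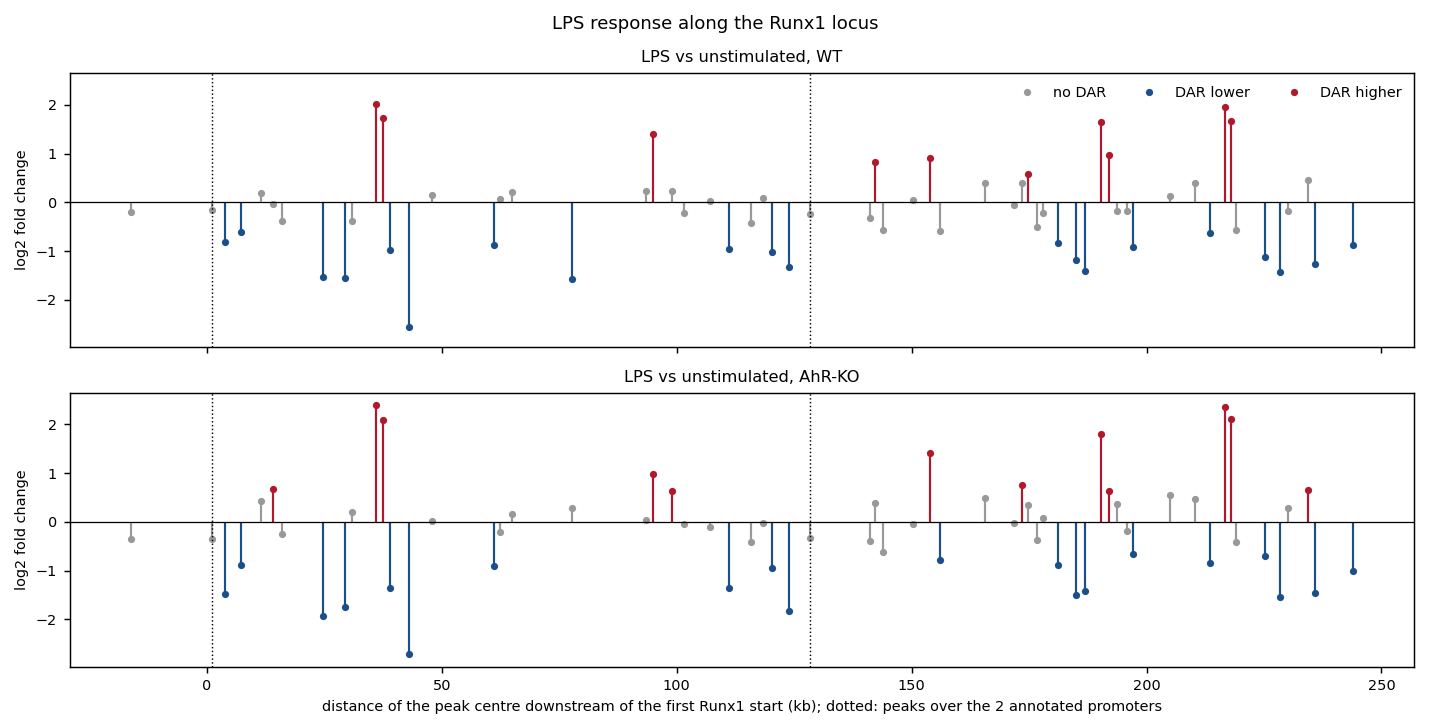
Log2 fold change with LPS (vertical axes) of the 62 tested Runx1 peaks in WT (top) and AhR-KO (bottom) against the distance in kb from the first Runx1 start (horizontal axis); red and blue mark DARs, grey marks peaks that are none, and dotted lines mark the peaks over both promoters. Of these peaks, 19 are lower and 8 are higher DARs in both panels, and the deepest fall, -2.56 and -2.71, is at +42.9 kb.

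Of the 4 Runx1 peaks lower in AhR-KO in both states, 3 also fell with LPS in both genotypes, at +61.2, +7.3 and +3.9 kb, and the last is described here by the naming rule. Runx1 +3.9 kb (chr16:92821912-92822491), in the intron after the distal promoter, had lowest, median and highest values of 8.14, 10.4 and 12.8 CPM in resting WT, 5.29, 6.05 and 7.41 in resting AhR-KO, 4.28, 5.91 and 8.42 in LPS-treated WT and 1.24, 2.38 and 3.01 in LPS-treated AhR-KO libraries. The genotypes did not overlap in either state, and AhR-KO LPS was lowest of all. The genotype difference was -0.81 ± 0.155 without LPS and -1.46 ± 0.172 with LPS, and the interaction of -0.66 ± 0.232 had an adjusted p of 0.0521. That value lay at the threshold: it passed when any of 9 libraries was left out, for example at -0.76 with an adjusted p of 0.0124 without WT LPS replicate 3. The peak was called in 6 of 6 WT and 4 of 6 AhR-KO libraries at rest, and in 6 of 6 and 0 of 6 after LPS. In all, 4 of 62 tested Runx1 peaks were lower and 6 were higher in AhR-KO in both states, where 6.95% and 5.08% of all tested peaks were.

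Runx3 was lower in AhR-KO at rest. Its summed signal was 86.5 ± 9.83 CPM in resting WT, 73.8 ± 3.93 in resting AhR-KO, 96.8 ± 11.8 in LPS-treated WT and 93.2 ± 8.37 in LPS-treated AhR-KO libraries. The genotype difference was -0.23 ± 0.074 without LPS, with an adjusted p of 0.00786, and -0.05 ± 0.0718 with LPS. LPS raised the sum by 0.34 ± 0.073 in AhR-KO; in WT the change was 0.16 ± 0.0729 with an adjusted p of 0.0637, and it passed when any of 7 libraries was left out, for example at 0.22 with an adjusted p of 0.0078 without WT LPS replicate 3. The difference between these responses, 0.18 ± 0.103, did not pass the test.

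Of 14 Runx3 peaks, 4 were lower in AhR-KO without LPS and 3 with LPS, and 0 were higher in either state. The lower ones are 28.6% and 21.4%, beside 12.6% and 13.1% of all tested peaks. The upstream promoter, Runx3 -0.1 kb (chr4:135120140-135120867), held 10.3 ± 2.28 CPM in WT and 8.38 ± 1.38 CPM in AhR-KO at rest, and 8.08 ± 2.1 and 3.67 ± 0.21 CPM with LPS. The 6 AhR-KO LPS libraries lay between 3.37 and 3.91 CPM, below all others. Their difference from WT LPS was -1.14 ± 0.152 with an adjusted p of 3.83e-07, against -0.31 ± 0.145 without LPS, and the interaction was -0.83 ± 0.211 with an adjusted p of 0.00724. The downstream promoter at Runx3 +32.5 kb (chr4:135152021-135154300) differed by -0.11 ± 0.0999 with LPS, with an adjusted p of 0.387.

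At an intronic Runx3 peak the genotype difference was found without LPS. Runx3 +48.6 kb (chr4:135168884-135169543) held 1.63 ± 0.192 CPM in resting WT, 0.669 ± 0.223 in resting AhR-KO, 3.45 ± 0.481 in LPS-treated WT and 4.01 ± 1.37 in LPS-treated AhR-KO libraries. It was lower in AhR-KO at rest, by -1.29 ± 0.237, and differed after LPS by 0.21 ± 0.159 with an adjusted p of 0.293, with an interaction of 1.5 ± 0.286 at an adjusted p of 0.000437. Runx3 +44.7 kb (chr4:135165168-135165615) was lower in both states, by -1.62 ± 0.241 and -0.86 ± 0.209, at 1.71 ± 0.329 and 0.567 ± 0.249 CPM at rest.

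Klf4, a zinc finger factor of monocyte differentiation, showed no genotype difference in its sum past the test. Its summed signal was 101.3 ± 2.86 CPM in WT unstimulated and 101.0 ± 4.6 CPM in AhR-KO unstimulated, and 120.9 ± 6.84 and 116.3 ± 4.68 CPM with LPS. The LPS rise was 0.26 ± 0.0408 in WT and 0.20 ± 0.0406 in AhR-KO, and 1 upstream peak was the sole Klf4 peak that rose past the fold limit. A sum without that peak alone was not tested. Klf4 -9.2 kb (chr4:55541043-55542241) held 3.28 ± 0.354 CPM in WT and 3.91 ± 0.429 CPM in AhR-KO at rest, and 15.4 ± 2.1 and 17.8 ± 1.03 CPM with LPS. Every LPS library exceeded every unstimulated one, by 4.72-fold in the fit in WT and 4.53-fold in AhR-KO. The TSS peak at Klf4 +0.7 kb (chr4:55530102-55533459) stayed between 63.8 and 72.9 CPM in the group means. A window of 5 kb either side leaves out Klf4 -9.2 kb and also the peaks at +23.5, +17.5 and -14.0 kb. In that window the LPS rise of the locus was no longer called in either genotype. A genotype difference of -0.16 with LPS was called there. Klf4 +23.5 kb (chr4:55508584-55509411) was the sole genotype DAR of the locus and was higher in AhR-KO in both states, by 0.84 ± 0.096 and 0.68 ± 0.095.

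Egr2, an immediate-early zinc finger factor that acts after PU.1 in macrophage commitment, was more accessible in AhR-KO. Its summed signal had lowest, median and highest values of 95.2, 106.2 and 108.9 CPM in resting WT, 119.8, 130.9 and 146.2 in resting AhR-KO, 108.8, 110.3 and 118.1 in LPS-treated WT and 115.7, 124.1 and 146.7 in LPS-treated AhR-KO libraries. The unstimulated groups did not overlap, and with LPS they overlapped in part. Between genotypes it differed by 0.32 ± 0.0533 without LPS and 0.21 ± 0.0523 with LPS, with adjusted p of 1.17e-05 and 0.00203. The LPS change of the sum did not pass the test, at 0.09 ± 0.0531 in WT and -0.02 ± 0.0524 in AhR-KO. The window also holds Ado, and the nearest coding TSS was that of Egr2 for only 6 of the 10 peaks. Egr2 +10.9 kb covers the TSS of Ado, and Egr2 +7.3 kb, a genotype DAR in both states, overlaps an untranslated exon of Ado.

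All 10 Egr2 peaks had a positive log2 fold change in AhR-KO in both states, and 5 and 4 of them were DARs. Of all tested peaks, 9.95% were higher DARs in AhR-KO without LPS and 13.4% with LPS. The median log2 fold change over all tested peaks was -0.0212 without LPS and 0.0211 with LPS. The share of all tested peaks with a positive change in both states was not computed. Egr2 -8.4 kb (chr10:67528751-67530147) rose from 1.61 ± 0.322 CPM in WT to 4.78 ± 0.904 CPM in AhR-KO at rest, 2.91-fold, and stood at 2.58 ± 0.436 and 5.81 ± 1.17 CPM with LPS, 2.26-fold, with no overlap in either state. Of its central 300 bases, 83.7% were soft-masked as repeats. Egr2 -5.8 kb (chr10:67531971-67532266) held 1.54 ± 0.233 CPM in WT and 3.56 ± 0.434 CPM in AhR-KO at rest, and 1.82 ± 0.313 and 1.85 ± 0.361 CPM with LPS, with an interaction of -1.17 ± 0.207 at an adjusted p of 0.000183. The TSS peak at Egr2 -0.6 kb (chr10:67535275-67539343) held 56.3 ± 3.65 CPM in WT unstimulated and 64.1 ± 5.38 CPM in AhR-KO unstimulated, a difference of 0.19 ± 0.0604 under the fold limit.

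The interaction called 14 of the 153 peaks, 6 lower and 8 higher, against a background of 4.58% lower and 5.83% higher (10.4% in either direction). Of these, 8 are described above: 3 lower, at Spi1 +16.9 kb, Runx3 -0.1 kb and Egr2 -5.8 kb, and 5 higher, at Spic -1.4 and +8.2 kb, Cebpe -12.5 and +5.8 kb and Runx3 +48.6 kb. The other 6, listed because they complete the count, were Spi1 -6.8 kb at -0.83, Spi1 +27.2 kb at -1.41 and Egr2 +4.6 kb at -0.84, and Runx3 +60.3 kb at 1.5, Runx1 +77.7 kb at 1.87 and Cebpa +18.4 kb at 0.67. Cebpb, Cebpd and Klf4 had 0 such peaks. The peak caller found Spi1 +27.2 kb only in 1 resting AhR-KO library and Runx1 +77.7 kb only in 2 resting WT libraries. The interactions of these peaks are thus partly set by how they entered the consensus set. The median interaction over the member peaks was -0.009, beside 0.0392 over all tested peaks.

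**Figure D5:**
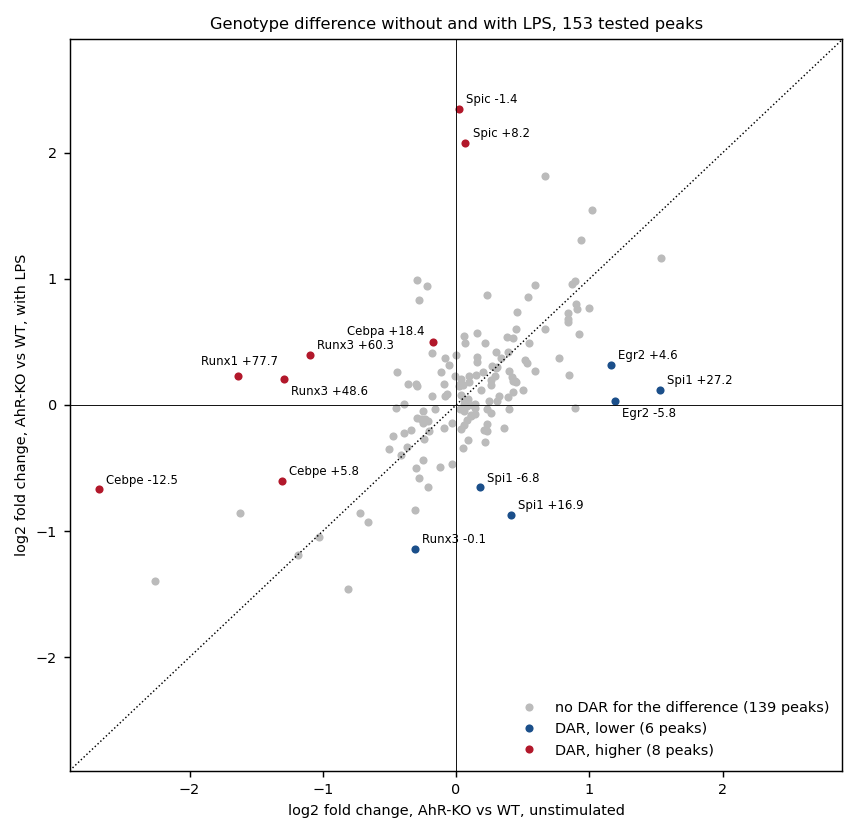
Log2 fold change of AhR-KO against WT without LPS (horizontal axis) and with LPS (vertical axis) for the 153 tested peaks; the dotted line marks equal differences, and coloured, named points are the 14 DARs of the interaction. Spic -1.4 and +8.2 kb sit near 0 without LPS and above 2 with LPS, and Cebpe -12.5 kb sits at -2.68 without LPS and -0.67 with LPS.

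Related genes were counted in the same way. Around 10 relatives and partners of the members (Spib, Cebpg, Runx2, Cbfb, Klf2, Klf6, Egr1, Egr3, Gfi1 and Irf8), 151 peaks were tested, of which 12 were lower and 11 higher in AhR-KO without LPS and 17 were lower and 15 higher with LPS. These are 7.95% and 7.28% at rest, beside 12.6% and 9.95% of all tested peaks, and 11.3% and 9.93% with LPS, beside 13.1% and 13.4%. LPS lowered 26 and raised 41 of them in WT, 17.2% and 27.2% beside 21.6% and 25.4%, and lowered 36 and raised 39 in AhR-KO, 23.8% and 25.8% beside 21.5% and 27.3%. Irf8, which partners PU.1 in monocyte development, stood out in its locus sum: AhR-KO exceeded WT by 0.22 ± 0.0575 without LPS and was below WT by -0.44 ± 0.0573 with LPS, with an interaction of -0.67 ± 0.0812 at an adjusted p of 1.01e-06. It was the only 1 of the 10 relatives called for the interaction, where 36.5% of all loci were called in either direction.

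Around 10 genes known as targets of PU.1 and C/EBP factors in macrophages (Csf1r, Csf2ra, Csf2rb, Csf3r, Itgam, Itgax, Adgre1, Cd14, Lyz2 and Fcgr1), 130 peaks were tested, of which 10 were lower and 19 higher in AhR-KO without LPS and 14 were lower and 8 higher with LPS. These are 7.69% and 14.6% at rest, beside 12.6% and 9.95% of all tested peaks, and 10.8% and 6.15% with LPS, beside 13.1% and 13.4%. By locus sum, 7 of the 10 were higher and 1, Adgre1, was lower in AhR-KO without LPS, beside the 60.9% of all loci called. With LPS, 3 were higher and 1 was lower, beside 42.4% of all loci called. Itgax, which encodes CD11c, had the largest difference, 0.70 ± 0.0785 without LPS and 0.42 ± 0.0768 with LPS. Lyz2, which encodes lysozyme, was higher by 0.51 ± 0.108 in AhR-KO at rest and changed with LPS by -0.87 ± 0.11 in WT and -1.57 ± 0.111 in AhR-KO, with an interaction of -0.70 ± 0.154 at an adjusted p of 0.00128. In all, 5 of the 10 target loci were called for the interaction, each lower, where 36.5% of all loci were called in either direction. The macrophage marker sums given above, which include Adgre1, Csf1r, Itgam and Itgax, moved in the same comparison.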

How the data were processed

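ATAC-seq libraries of 24 BMDM cultures in 4 groups of 6, grouped by the labels, were analysed. The authors aligned reads to mm10 with an nf-core pipeline, called broad peaks per library with MACS2, merged them into consensus peaks and, per the file headers, counted fragments with featureCounts 2.0.1 at a fractional overlap of 0.2. The deposited table holds raw counts, with a fragment counted for every peak it overlaps enough. The deposited peak lists hold the MACS2 display score, fold enrichment and -log10 p and q values, used here for whether a peak was called in a library.

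Gene windows came from GENCODE vM21. Counts were fitted in edgeR 4.0.16 (R 4.3.3) with TMM factors, filterByExpr by group and a robust quasi-likelihood fit of group means over all 24 libraries, without a replicate term. CPM used each library's total over the tested peaks, 8.52 to 34.5 M (mega) counts before scaling, times its TMM factor. SEs were taken from the fold change and its F value. The test was two-sided. On simulated counts for 172277 peaks in the unstimulated comparison, 15 of 67 changes of 1.5-fold, 53 of 67 of 2-fold and 65 of 66 of 4-fold were called, with 6 false calls. The closest 2 of 60 replicate pairs differed by a chi-square of 1.23 per peak, so none was merged.

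The 10 genes and all gene lists were chosen with earlier results of these data known. Named peaks were those over a TSS (or the highest peak), the 3 lower and 3 higher genotype DARs and the 2 lower and 2 higher LPS and interaction DARs with the smallest p; Spi1 +1.8 kb, Cebpb +4.2 kb and the peaks that complete the interaction count were named after their values were seen. Alternatives were RLE factors, no low-count filter, a loess offset, thinning to the lowest total, a replicate block, fits of 2 groups, DESeq2 1.42.0, no fold threshold, a 5 kb flank, nearest-TSS assignment and leaving out each library.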

Additional observations from a re-analysis of the deposited data

Results flagged for a closer look

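The genotype effect differed with and without LPS, by the interaction term of the edgeR fit, at 8 named peaks. It was higher with LPS at Spic -1.4 kb (2.33 on the log2 scale), Spic +8.2 kb (2.01), Cebpe -12.5 kb (2.01), Runx3 +48.6 kb (1.5) and Cebpe +5.8 kb (0.71). It was lower with LPS at Spi1 +16.9 kb (-1.28), Egr2 -5.8 kb (-1.17) and Runx3 -0.1 kb (-0.83). By locus sum it was higher at Spic (0.60) and Cebpe (0.31) and lower at Cebpd (-0.35) and Spi1 (-0.25).

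One library stood apart from the other 5 of its group in 6 of 156 groups of values, where chance gives about 5% of groups. WT unstimulated replicate 5, which had the fewest counts, was highest at Spic +8.2 kb with 0.582 CPM (others 0.131 to 0.297) and at Klf4 +23.5 kb with 7.79 CPM (others 5.75 to 6.4). WT unstimulated replicate 6 was lowest at Runx1 +1.0 kb with 36.7 CPM (others 42.8 to 45.3), and AhR-KO unstimulated replicate 3 was lowest at Klf4 -9.2 kb with 3.07 CPM (others 4.0 to 4.32). AhR-KO LPS replicate 6 had the lowest Klf4 sum, 107.3 CPM (others 115.1 to 119.7), and WT LPS replicate 5 had the highest Egr2 sum, 118.1 CPM (others 108.8 to 111.3).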

How the results depend on the processing

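No called value reversed under any alternative, and counts of member DARs and called loci stayed within 1.5 times when any 1 library was left out. Without the fold threshold, the genotype comparison called 21 lower and 36 higher peaks at rest, and 27 and 41 after LPS; LPS lowered 52 in WT, and the interaction called 12 lower. With 5 kb either side, AhR-KO was higher at 13 peaks without LPS and 11 with LPS, LPS raised 21 in WT and 25 in AhR-KO, and 2 loci were called for the interaction; fewer peaks enter that window. Thinned to the lowest total, the interaction called 5 higher peaks, with fewer counts per peak. Of 1443 other values of named peaks and loci, 1399 kept their side of the threshold, 28 gained a call and 16 lost it. Of 4680 values with 1 library left out, 4613 kept it, 24 gained a call and 43 lost it. Low peaks, such as Spic +8.2 kb, are limited by depth: its LPS rise in WT was 0.72 and not called after thinning.

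Replicate numbers are not stated to pair libraries. The correlation of same-numbered libraries across LPS ran from 0.0486 to 0.343 in WT (median 0.261, other numbers -0.0699) and from 0.00876 to 0.21 in AhR-KO (median 0.0848, other numbers -0.00516), and 4 of 6 and 3 of 6 libraries correlated best with their own number, a hint from the data and not the design. With a replicate block, member DARs between genotypes numbered 12 lower and 19 higher at rest, and 14 and 22 after LPS, and the interaction called 6 lower and 10 higher. With the block nested in genotype, the interaction called 7 lower and 10 higher, and 4 values of named peaks and loci gained a call.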
